A study of Saccharomyces cerevisiae with 6 samples.

Results

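The fragments described here are the stretches of yeast nucleosomal DNA whose midpoint lay at least 1000 and less than 10000 bp from the nearer end of a chromosome in the R64 genome build, with 10 or more reads in each of 2 sections of a gel. They numbered 675 of the 9277 fragments of the genome with that many reads. They came from Topo-seq, an assay in which mononucleosome DNA, released by micrococcal nuclease from the Saccharomyces cerevisiae strain FY251, was inserted in the circular minichromosome YCp1.3 and returned to the same strain as a pool of transformants. Each circle keeps the linking number difference (∆Lk) that its nucleosomes gave it, and circles with different ∆Lk run apart in an agarose gel. The pooled DNA was sequenced before the gel (NucLib), after elution from the section above the mean linking number (Topo-seq-A, less negative ∆Lk) and after elution from the section below it (Topo-seq-B, more negative ∆Lk). The gel was run once and each of the 3 samples was sequenced in 2 runs, so the p-values below cover the spread between sequencing runs and not that between cultures or gels.

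The last kilobases of yeast chromosomes are built from a few repeated parts. TG-rich telomeric repeats cap each end, the X element lies inside them at every end, and the longer Y' element, present at some ends only, carries reading frames of a helicase family of which the YRF1 genes are the annotated members. Short tracts of telomeric repeat also lie inside, between X and Y' elements. Further in stand gene families with near-identical copies at several ends, among them the PAU cell wall mannoproteins, the COS endosomal proteins and genes of sugar and drug transport. Chromatin near ends is silenced by the Sir proteins. Because of the repeats, a short read from these regions can belong to several places.

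Both features show in the sequences on which the results below turn. The first sequence is the most read fragment of a telomeric repeat tract on the right arm of chromosome VIII, and the second, printed on the reverse strand, is the fragment with the highest ∆Lk among those well read. Capitals mark the hexamer TGTGGG of the telomeric repeat. All are read from the R64 reference.
chrVIII:556827-556989, 163 bp: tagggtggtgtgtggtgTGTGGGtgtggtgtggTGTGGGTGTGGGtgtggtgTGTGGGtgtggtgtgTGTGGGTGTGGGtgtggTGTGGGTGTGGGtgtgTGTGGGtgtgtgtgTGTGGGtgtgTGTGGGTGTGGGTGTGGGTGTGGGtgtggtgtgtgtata
chrVI:4715-4814, 100 bp, reverse strand: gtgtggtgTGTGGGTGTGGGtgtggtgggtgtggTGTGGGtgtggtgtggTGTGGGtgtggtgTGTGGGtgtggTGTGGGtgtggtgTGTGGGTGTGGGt
The next pair is from the subtelomeric reading frames YHL050C and YBL113C, where a unit of 36 bp recurs, and capitals mark every other unit counted from the first base.
chrVIII:1749-1899, 151 bp: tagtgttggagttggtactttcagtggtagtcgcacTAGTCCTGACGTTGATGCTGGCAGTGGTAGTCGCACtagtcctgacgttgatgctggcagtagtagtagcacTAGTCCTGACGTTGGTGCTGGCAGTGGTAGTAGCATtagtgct
chrII:1938-2076, 139 bp: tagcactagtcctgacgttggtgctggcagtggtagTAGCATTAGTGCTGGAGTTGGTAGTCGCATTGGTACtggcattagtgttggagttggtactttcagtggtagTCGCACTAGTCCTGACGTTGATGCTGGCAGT
The following stretch of YRF1-1 joins a 135-bp and a 144-bp insert found at 10 chromosome ends each, and capitals mark the 92 bp that they share.
chrIV:1529096-1529282, 187 bp: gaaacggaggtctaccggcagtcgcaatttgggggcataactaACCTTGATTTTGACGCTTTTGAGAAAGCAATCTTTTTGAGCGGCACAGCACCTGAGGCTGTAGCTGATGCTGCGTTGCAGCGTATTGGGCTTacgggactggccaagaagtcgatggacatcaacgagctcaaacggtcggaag
The last sequences were chosen after their values were seen, one from YRF1-1 for the lowest ∆Lk among sequences at 5 or more ends, and one from YJL225C for the lowest A/B ratio of all the fragments described, with capitals on the bases that the next shorter fragment lacks.
chrIV:1528224-1528378, 155 bp: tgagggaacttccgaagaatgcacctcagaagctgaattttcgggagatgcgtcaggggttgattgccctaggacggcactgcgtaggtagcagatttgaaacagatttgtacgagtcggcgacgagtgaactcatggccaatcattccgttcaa
chrX:3519-3644, 126 bp: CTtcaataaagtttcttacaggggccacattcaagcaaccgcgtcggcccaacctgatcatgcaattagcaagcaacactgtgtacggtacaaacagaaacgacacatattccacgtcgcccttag

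The lists held 851697 and 1748161 reads for NucLib, 2073823 and 1698433 for section A and 1480629 and 1865197 for section B, and the subtelomeric fragments took 3.80% to 4.58% of the reads of each. Each list ended at 65536 lines in order of count, so that these totals are lower bounds, and a fragment missing from a list was counted as 0. All 675 fragments were listed in both runs of section A and 674 in both runs of section B, whereas 12 had no read in either list of NucLib. They held 387 distinct sequences, of which 302 were found at 1 of the places described and 85 at several, and these 85 accounted for 373 fragments. Every one of the 32 chromosome ends was represented, but the 17 ends with a Y' element held 613 of the fragments. The right end of chromosome VIII held 112 and its left end 71, whereas the left end of chromosome XI held 1. Of the 675, 600 had their midpoint in an annotated telomeric region, 523 in coding sequence, and 263 had a sequence that is unique in the reference.

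The fragments overlapped heavily, and most of the overlap lay in 3 places. They formed 230 clusters of overlapping fragments, 149 of them with a single member, and the 3 largest clusters held 197 fragments. Of the 675, 202 were minor, meaning that they had a border in common with another fragment read 50 or more times as often, and 160 of these lay in the 3 largest clusters. Overlapping fragments are not replicates of one another, so the comparisons between sets of fragments below are counts and medians with no test.

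Taken as a set, the subtelomeric fragments were divided evenly between the sections. edgeR's quasi-likelihood test, fitted over the 9277 fragments with Benjamini-Hochberg adjustment, called 133 of the 675 (19.7%) more abundant in section A, against 24.3% of all fragments tested, and 133 (19.7%) more abundant in section B, against 21.3%. The median log2 ratio of relative abundances (log2 A/B) was 0.02, against 0.08 over all fragments tested. Of the 266 called fragments, 265 lay on the same side in both runs. Of all 675, 515 did so. DESeq2 called 58 and 78, and with library sizes that leave out the most abundant fragment edgeR called 190 and 104, so the balance of calls moved with the scaling.

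∆Lk was computed from the share of section A by the steps of the study, which subtract the mean of all fragments of the same length and then shift each value by 0.007 per bp. The length means were taken over the fragments tested here, so single values can differ from the published ones. The published values were not compared with those given here. The median ∆Lk was −1.18 (quartiles −1.42 and −0.93), slightly less negative than the median of −1.25 (quartiles −1.44 and −1.06) of all fragments tested. It lay between the −0.89 of the 229 fragments within 1 kb of an end and the −1.27 of the 5661 fragments over 30 kb from an end outside the rDNA, with −1.21 for the 346 fragments at 10 to 30 kb. Within the range described, the median was −1.16 at 1 to 2.5 kb (277 fragments), −1.20 at 2.5 to 5 kb (193) and −1.20 at 5 to 10 kb (205), and Spearman's rho of distance with ∆Lk was −0.05 over the 675 fragments, which share libraries and often reads. Errors given as ± are standard errors of ∆Lk from read counting alone, and reads amplified by PCR are not independent molecules. Without the minor fragments, the medians were −1.04, −1.20 and −1.20, and rho was −0.24 over 473 fragments. With each of the 387 distinct sequences counted once, minor ones included, rho was 0.04. The difference of 0.064 between the median of the set and that of all fragments tested turned to −0.01 when each locus (overlapping fragments joined with their identical copies, 104 in all) counted once.

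**Figure D1:**
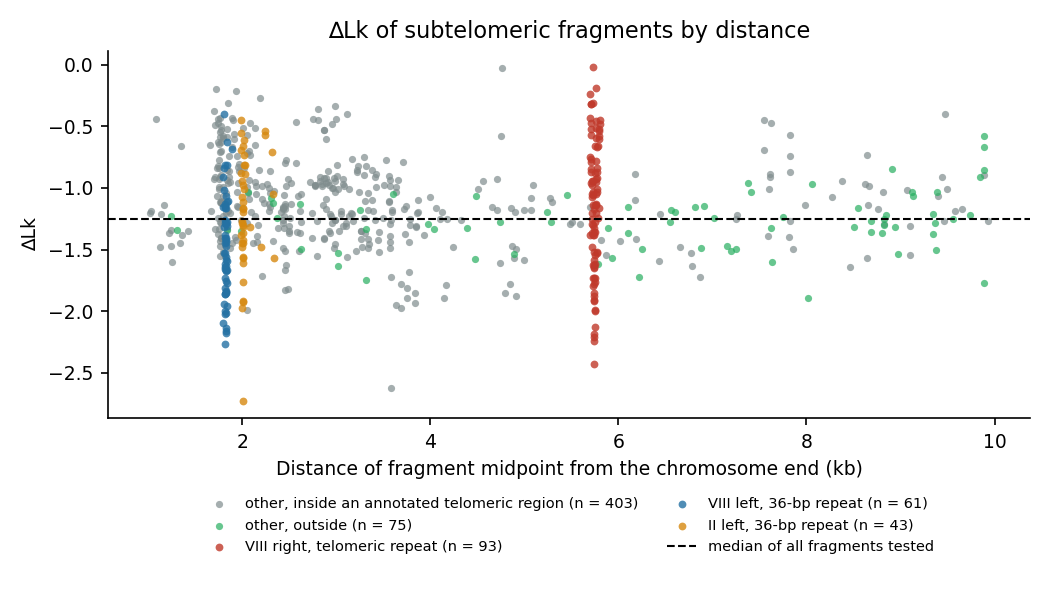
∆Lk of each subtelomeric fragment (vertical axis, in units of linking number) against the distance of its midpoint from the nearer chromosome end (horizontal axis, kb), with the 3 largest clusters, and the other fragments inside and outside annotated telomeric regions, in separate colours and the median of all fragments tested as a dashed line. The medians of the 3 distance ranges lie between −1.20 and −1.16, while single fragments range from −2.73 to −0.02.

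Fragments on both sides of the limits of the set had the following values. At the near limit, the closest fragment inside, chrXVI:946967-947118 in YPR204W with its midpoint 1024 bp from the end, had a log2 A/B of 0.77 and a ∆Lk of −1.21, and the closest outside, chrVI:269104-269252 at 983.5 bp, had 0.48 and −1.31. At the far limit, chrXII:1068177-1068319 in YRF1-4 (9929.5 bp) had a log2 A/B of 0.39 and a ∆Lk of −1.27, and chrXII:1067882-1068018 (10227.5 bp) had 0.29 and −1.10. The read minimum took 48 fragments with exactly 10 reads in a section, whose median log2 A/B was −0.17, and left out 45 fragments of the same range with 9 reads in one section and 10 or more in the other, whose median was −0.46. A further 167 fragments of the range had 10 or more reads in NucLib without meeting the minimum in both sections.

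The largest cluster was the tract of telomeric repeat at chrVIII:556827-556990, its main fragment 5735.5 bp from the right end of chromosome VIII, where 93 fragments of 28 to 164 bp lay in 164 bp of DNA with no gene. The nearest gene is IMD2, a subtelomeric IMP dehydrogenase gene that lies in from the tract. All 93 sequences were unique in the reference, although the tract is made of TG-rich units throughout, and the full-length sequence printed above holds 14 copies of TGTGGG. This 163-bp fragment had 537 and 954 reads in the NucLib runs, 4627 and 3095 in the section A runs and 1687 and 1680 in the section B runs. It was higher in section A in both runs, with a log2 A/B of 1.02 (edgeR SE 0.05, adjusted p = 7.41e-26) and a ∆Lk of −1.03.

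The fragment with the same start that ended 3 bp earlier went the other way. This 160-bp fragment had 1168 and 1882 reads in NucLib, 1099 and 625 in section A and 1529 and 1481 in section B, so that it was lower in section A in both runs although it was the more abundant of the pair before the gel. Its log2 A/B was −0.98 (edgeR SE 0.08, adjusted p = 1.12e-18) and its ∆Lk −1.78, a difference of 2.00 in log2 A/B and of 0.75 in ∆Lk from the 163-bp fragment. In relative abundance, the 163-bp fragment lay above NucLib in both sections, and the 160-bp fragment lay below NucLib in both. The pair thus differed in more than the division between sections, and the part of this in the ∆Lk difference was not tested. Of the 92 fragments other than the 163-bp one, edgeR called 2 higher in section A and 48 higher in section B. Their median log2 A/B was −0.86 and their median ∆Lk −1.14. The 163-bp fragment alone held 54.3% of the cluster's reads in section A, 25.9% in section B and 19.1% in NucLib. In this tract the relative abundance in the first run exceeded that in the second in every sample (1.19, 1.22 and 1.25 times in NucLib, A and B), against 0.98 to 1.00 times over the fragments outside the 3 largest clusters, and the part of this in the values was not tested.

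Short pieces of the same repeat had the highest ∆Lk values. The highest, −0.02 ± 0.15 (counting error), was that of the 104-bp fragment chrVIII:556860-556963, with 20 and 16 reads in section A and 6 and 11 in section B, which was not called. The 100-bp fragment chrVI:4715-4814, from a repeat tract 4764 bp from the left end of chromosome VI, had 20 and 28 reads in NucLib, 113 and 72 in section A and 34 and 20 in section B. Its relative abundance was higher in section A in both runs, with a log2 A/B of 1.60 (edgeR SE 0.24, adjusted p = 5.27e-08), and its ∆Lk was −0.03 ± 0.08 (counting error). In the chromosome VIII tract, the 110-bp fragment chrVIII:556827-556936 had 123 and 73 reads in section A against 50 and 62 in section B and a ∆Lk of −0.19 ± 0.06. Its log2 A/B of 0.63 (edgeR adjusted p = 0.0048) was no longer called without the first run of section A (adjusted p = 0.27) or by DESeq2 (adjusted p = 0.23). Fragments under 130 bp in this tract, 53 of the 92, had a median log2 A/B of −1.17, below the ratios of the pieces named here. That ratio is not corrected for length, so it does not tell how typical their ∆Lk was. Part of the high ∆Lk of the short pieces comes from the shift per bp, which raises short fragments of any sequence. Over all fragments tested, the median ∆Lk was −0.93 under 110 bp and −1.10 at 110 to 129 bp.

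The hexamer TGTGGG was found on either strand in 104 of the 675 fragments (15.4%), against 9.26% of all fragments tested and 81.7% of those within 1 kb of an end. Of the 104, 6 were called in section A and 51 in section B (214 and 232 of the 859 with the hexamer among all fragments tested), and their median ∆Lk was −1.16, against −1.19 without the hexamer. Most of them are the nested fragments of chromosome VIII just described. TTAGGG, the core bound by the telomere factor Tbf1, was found in 16 (2.37%, against 3.06% of all), which held 3 distinct sequences. Of the 16, section A was called for 7 and section B for 0, whereas of the 284 fragments with TTAGGG among all those tested 52 were called in A and 94 in B. TTACCCG, the site of Reb1, and the ARS consensus sequence of replication origins were found in 0, against 1.43% and 0.183% of all. A tract of AAAAAA was found in 43 (6.37%), against 12.5% of all fragments tested. A match is a description of the sequence and not a bound site. The GC content of the subtelomeric fragments had a median of 49.6%, against 44.5%, and its Spearman's rho with ∆Lk was 0.10 over the 675 and 0.36 over the 473 that were not minor. With each of the 387 distinct sequences counted once, minor ones included, it was 0.03.

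The second and the third cluster lay in reading frames whose 36-bp repeats are printed above. In each, 1 fragment held most of the reads of every sample and was higher in section A. The many minor fragments around it leaned to section B in log2 A/B. The 163-bp fragment of the first cluster, by contrast, held most of the reads in section A only. YHL050C, near the left end of chromosome VIII, held 61 fragments in 269 bp. Its 151-bp fragment chrVIII:1749-1899 had 5816 and 12385 reads in NucLib, 25850 and 20868 in section A and 9792 and 12043 in section B, with a log2 A/B of 0.92 (edgeR adjusted p = 1.05e-52) and a ∆Lk of −1.14. Of the other 60, 4 were called in section A and 23 in section B, with a median log2 A/B of −0.63 and a median ∆Lk of −1.53. Among them the 184-bp fragment with the same start, chrVIII:1749-1932, had 34 and 19 reads in section A against 75 and 70 in section B and a ∆Lk of −1.96.

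In YBL113C, near the left end of chromosome II, the 139-bp fragment chrII:1938-2076 had 3019 and 6480 reads in NucLib, 6631 and 5309 in section A and 3406 and 4318 in section B, for a log2 A/B of 0.46 (edgeR adjusted p = 2.63e-23) and a ∆Lk of −1.17. Its relative abundance was above that of section B in both runs of section A. Of the other 42 fragments, 0 were called in section A by edgeR and 13 in section B, with a median log2 A/B of −0.71 and a median ∆Lk of −1.23. The lowest ∆Lk of the whole set, −2.73 ± 0.13 (counting error), belonged to chrII:1938-2082, which shares the start and is 145 bp long, with 5 and 6 reads in section A and 70 and 68 in section B.

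**Figure D2:**
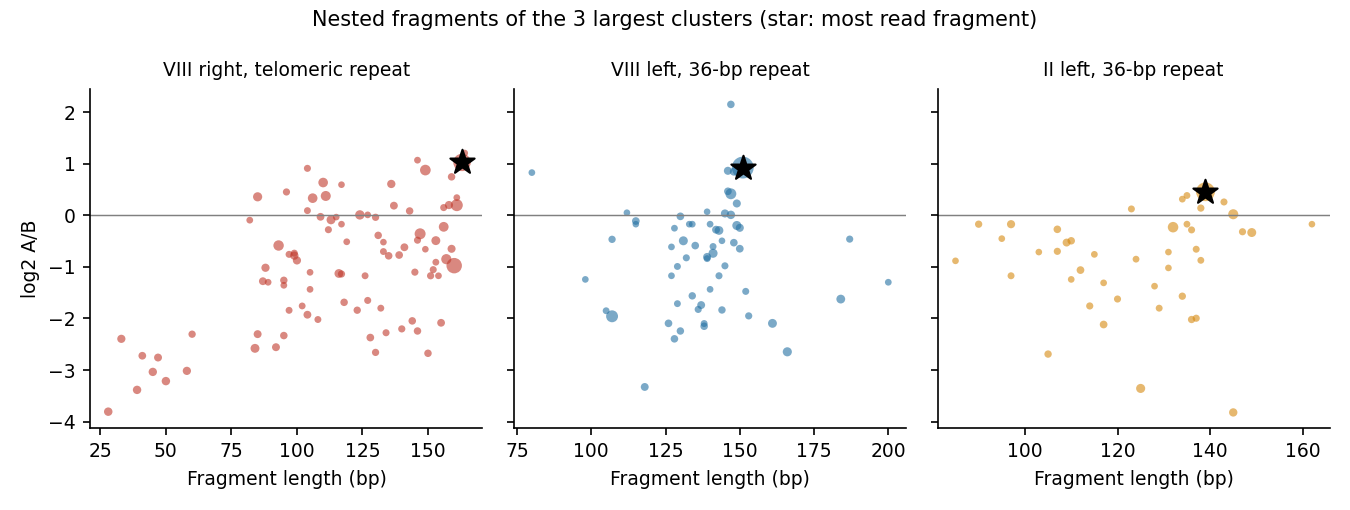
log2 A/B (vertical axis) against fragment length in bp (horizontal axis) for the fragments of the 3 largest clusters, 1 panel each, with larger points for better read fragments and a star for the most read one. The stars lie at 1.02, 0.92 and 0.46, above the medians of −0.86, −0.63 and −0.71 of the fragments around them.

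The lean of minor fragments to section B was not particular to chromosome ends. Of the 202 minor subtelomeric fragments, 3 were called in section A and 83 in section B, with a median log2 A/B of −0.75. Of the 1411 minor fragments in all those tested, 42 were called in section A and 613 in section B, with a median of −0.76. The 473 subtelomeric fragments that were not minor had 130 calls in section A (27.5%) and 50 in section B (10.6%), a median log2 A/B of 0.31 and a median ∆Lk of −1.17. Over the 7866 fragments tested that were not minor, 28.1% were called in section A and 17.3% in B, with a median log2 A/B of 0.20 and a median ∆Lk of −1.24. The share of the subtelomeric ones called in section A was thus close to that over the genome.

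The nested fragments of YJL225C, a Y' reading frame on the left arm of chromosome X, held the lowest A/B ratio. The most read of them, chrX:3519-3627 of 109 bp, had 2897 and 2318 reads in section A and 5223 and 6469 in section B, with a log2 A/B of −1.34 (edgeR adjusted p = 9.98e-48) and a ∆Lk of −0.99. The 126-bp fragment with the same start, printed above, had 12 and 28 reads in NucLib, 7 and 5 in section A and 268 and 297 in section B, with a log2 A/B of −5.73 (edgeR SE 0.22, adjusted p = 2.2e-33) and a ∆Lk of −2.62 ± 0.10 (counting error). It was almost absent from section A in both runs. Its relative abundance in section B was many times that in NucLib in both runs, and the part of this in its A/B ratio was not tested. The 124-bp fragment that lacks its first 2 bases had 101 and 237 reads in NucLib, 80 and 69 in section A and 481 and 631 in section B, for a log2 A/B of −3.07 and a ∆Lk of −1.72. The difference of the 126-bp from the 124-bp fragment, −2.66 in log2 A/B and −0.90 in ∆Lk, was larger than the spread between runs of either.

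Other combinations of these borders were also read. The 107-bp fragment chrX:3521-3627, which joins the later start to the earlier end, had a log2 A/B of −2.99 and a ∆Lk of −1.49, with 55 and 38 reads in section A and 294 and 361 in section B. The 110-bp fragment chrX:3519-3628, 1 bp longer than the most read, had −1.40 and −0.94.

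**Figure D3:**
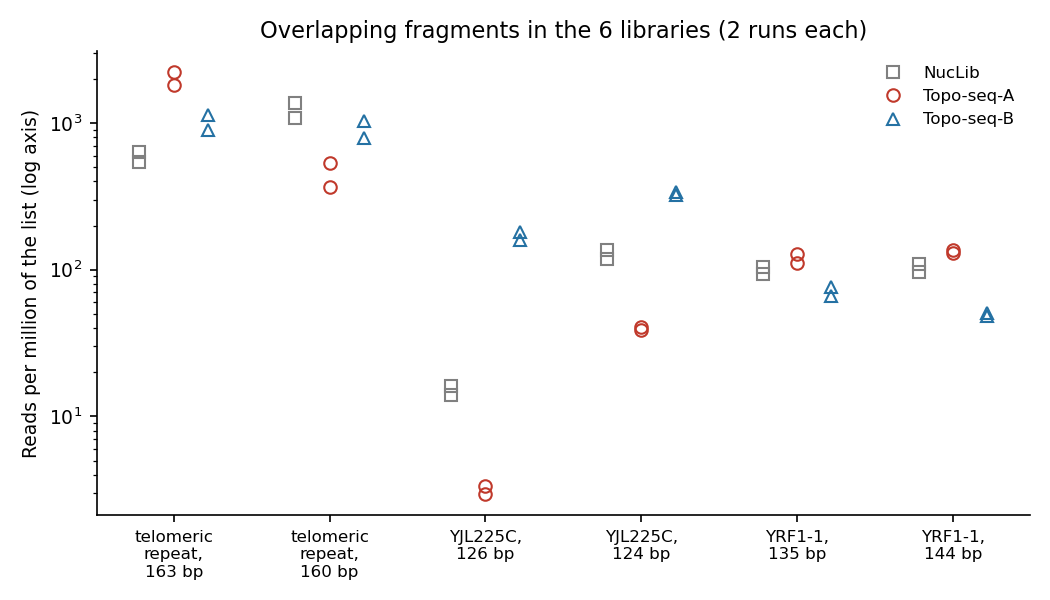
Relative abundance, as reads scaled to 1e6 reads of the list (vertical axis, log scale) in the 2 runs of NucLib, section A and section B for 3 pairs of overlapping fragments, side by side, with 1 symbol per run. In the chromosome VIII pair the 163-bp fragment lies higher in section A than in section B and the 160-bp fragment lower, in the chromosome X pair both lie lower in section A than in section B, and in the YRF1-1 pair both lie higher.

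The Y' helicase reading frames gave most of the remaining fragments. YRF1 genes, which encode the annotated Y' helicases, held 165 fragments, of which 46 (27.9%) were called in section A and 8 (4.85%) in section B, with a median ∆Lk of −1.14. The unnamed Y' reading frames held 255, with 52 (20.4%) and 35 (13.7%), and the same median. Of the 255, 73 were minor, against 0 of the 165. Among all fragments tested, the shares called were 24.3% for A and 21.3% for B. With minor fragments dropped, these shares were 28.1% and 17.3%. The YRF1 share for A was thus close to that of the other fragments that were not minor, and the share for B was lower. The YRF1 fragments held only 37 distinct sequences, so the count rests on far fewer inserts than fragments. Fragments with no annotated gene, 144 in all and 71 of them minor, had 15 calls in A and 55 in B. The 77 fragments of other unnamed reading frames, mostly those of YHL050C, had 10 and 26 calls and a median ∆Lk of −1.41, and the 17 of other named genes had 5 and 7. YHL050C was kept out of the Y' list by its annotation only, and it holds inserts identical to some of the Y' frames YIL177C and YJL225C. The calls of the Y' list therefore leave out its cluster. In coding sequence as a whole, 115 of 523 fragments were called in section A and 77 in section B, with a median ∆Lk of −1.18, and outside it 18 and 56 of 152, with −1.22.

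Identical Y' sequences allow the same insert to be read at many places. The most widespread, the 144-bp sequence of chrII:3355-3498 in YBL111C, was described at 17 places on 15 ends, with 615 reads from section A and 258 from section B over all its places. Summed, its log2 A/B was 1.08 (edgeR adjusted p over summed sequences = 6.4e-09) and its ∆Lk −1.08, whereas the single places ranged from −0.24 to 1.83 in log2 A/B and 9 of 17 were called in section A. The 143-bp sequence of chrXII:1068177-1068319, at 16 places, had 2073 and 1802 reads, a summed log2 A/B of 0.03 and 0 places called. A read with several matches cannot be assigned, and how the study placed such reads is not given in the sources used here.

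Since these reads cannot be told apart, like values at the places of 1 sequence may come from their assignment alone and are no agreement between independent measurements. Reads were not always shared evenly between places. Among the 85 sequences at several places, the most uneven was a 123-bp insert of the major facilitator transporter genes VBA3 and VBA5. Its copy in VBA5 (chrXI:659843-659965) had 552 and 465 reads in section A and 895 and 1196 in section B, and the copy in VBA3 (chrIII:9833-9955) had 10 and 6 against 47 and 74. Both copies have the same reference sequence, but the log2 A/B was −1.21 in VBA5 and −3.09 in VBA3. The neighbouring 109-bp insert chrIII:9832-9940 had all its 927 section A reads and 1608 section B reads at VBA3, with a log2 A/B of −0.97 (edgeR adjusted p = 2.2e-19) and a ∆Lk of −0.86.

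The 144-bp and the 135-bp inserts of the YRF1-1 stretch printed above were both higher in section A at every one of their 12 places. At the chromosome IV place the 144-bp insert had 82 and 190 reads in NucLib, 284 and 221 in section A and 75 and 90 in section B, and over the 12 places its log2 A/B ranged from 1.30 to 1.54. The 135-bp insert had 79 and 183, 231 and 218, and 113 and 124 reads at that place, and ranged from 0.66 to 0.96. Summed over places, the 144-bp insert had a log2 A/B of 1.39 and a ∆Lk of −0.97, and the 135-bp insert 0.80 and −0.96. The 2 ranges of log2 A/B did not overlap, but the places of an insert share its reads. Neither such ranges nor the numbers of places called, here and below, stand for replicates. The summed ∆Lk values, corrected for length, were alike.

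Both ways of combining the 4 ends of these inserts were also read, at lower counts. The 92 bp that they share had 640 reads from section A and 422 from section B over its 12 places, a summed log2 A/B of 0.43 and a ∆Lk of −0.47, and the 187 bp that they span together had 543 and 233, 1.05 and −1.39, with 8 of 12 places called in section A. At the opposite end of the scale, the 155-bp insert chrIV:1528224-1528378, also in YRF1-1, was called in section B at 9 of 10 places. Its reads were 297 from section A and 573 from section B, a summed log2 A/B of −1.12 and a ∆Lk of −1.85, with places from −1.97 to −1.68. Its place on chromosome IV had 31 and 57 reads in NucLib, 10 and 12 in section A and 23 and 28 in section B. The insert that overlaps its last bases, chrIV:1528358-1528494 of 137 bp, had a summed log2 A/B of 0.55.

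**Figure D4:**
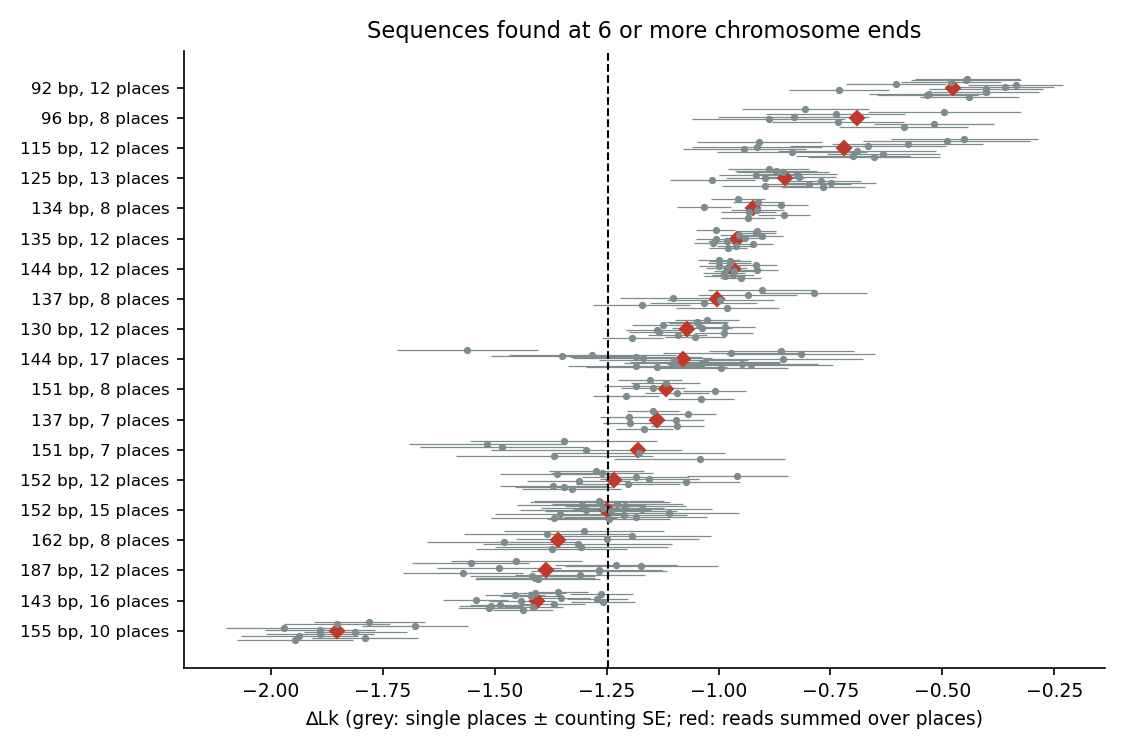
∆Lk (in units of linking number) at each place, with bars of 1 counting standard error, and of the summed reads, for the sequences found at 6 or more chromosome ends. The dashed line is the median of −1.25 over all fragments tested. The summed values range from −1.85 to −0.47.

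Counting each distinct sequence once changed the balance of calls. With the reads of all places summed, 73 of the 387 sequences (18.9%) were called in section A, against 24.4% of 8022 sequences over the genome, and 116 (30.0%) in section B, against 23.2%. The 85 sequences at several places had 32 calls in section A and 12 in section B and a median ∆Lk of −1.17. Single-place sequences, where the minor fragments of the 3 clusters lie, made up the other calls.

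Shorter Y' inserts reached higher ∆Lk at low counts, such as the 116-bp fragment chrX:1670-1785 in YJL225C (26 and 23 reads in section A against 7 and 16 in section B, edgeR adjusted p = 0.039, ∆Lk −0.20 ± 0.13) and the 92-bp fragment chrXIII:2942-3033 in YML133C (41 and 32 against 19 and 18, adjusted p = 0.027, ∆Lk −0.34 ± 0.11). Among those with 50 or more reads in each section, the named inserts were longer. The 135-bp fragment chrX:1670-1804 in YJL225C had 448 and 378 reads in section A and 151 and 183 in section B, with a log2 A/B of 1.13 (edgeR adjusted p = 1.25e-15) and a ∆Lk of −0.84. The 134-bp fragment of YRF1-3, chrVII:1089037-1089170, had 138 and 108 against 64 and 51 reads and a ∆Lk of −0.85, and the 133-bp fragment of YPR204W, chrXVI:945822-945954, had 2477 and 2075 against 1132 and 1437 and a ∆Lk of −0.86. In YML133C, chrXIII:2942-3076 had 224 and 197 against 87 and 105 reads and a ∆Lk of −0.90. These longer inserts all had a higher relative abundance in section A than in section B in both runs. The shift per bp accounts for part of the higher ∆Lk of the shorter inserts.

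The midpoint of 75 fragments lay in no annotated telomeric region. Their calls, 19 in section A (25.3%) and 18 in section B (24.0%), were close to the shares of 24.3% and 21.3% over all fragments tested, and their median ∆Lk was −1.27, against −1.17 for the 600 inside. Some of these inserts have identical copies in paralogous genes, between which reads cannot be told apart, so that like values at both copies are no result about the paralogues. The 94-bp insert shared by MPH2 and MPH3, which encode alpha-glucoside permeases, had 204 and 467 reads in NucLib, 383 and 312 in section A and 1380 and 1763 in section B at MPH2. It had 279 and 507, 402 and 323, and 1418 and 1743 at MPH3. Both copies were lower in section A in each run, with log2 A/B values of −2.35 and −2.30 (edgeR adjusted p = 4.37e-44 and 8.84e-44) and ∆Lk values of −1.20 and −1.18, which are relative to other inserts of the same length.

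The 147-bp insert shared by the acid phosphatase genes PHO11 and PHO12 lay on the opposite side. It had 215 and 211 reads in section A and 95 and 82 in section B at PHO11, and 243 and 225 against 81 and 109 at PHO12, with log2 A/B values of 1.09 and 1.13 (edgeR adjusted p = 1.71e-09 and 2.91e-11) and ∆Lk values of −1.05 and −1.04. The 112-bp insert downstream of the glutathione exchanger genes GEX1 and GEX2 was almost all in section B. It had 42 and 29 against 280 and 368 reads beside GEX1 (log2 A/B −3.36, ∆Lk −1.57) and 30 and 18 against 172 and 224 beside GEX2 (log2 A/B −3.22, ∆Lk −1.53). Farther out beside GEX1, chrIII:5167-5314 of 148 bp had 619 and 494 against 265 and 320 reads and a ∆Lk of −1.20.

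Single genes of the subtelomeric families lay on both sides. Of 6 PAU fragments, 2 were called in section A and 2 in section B. PAU8 (chrI:1993-2143) had 391 and 286 reads in section A against 118 and 139 in section B, with a ∆Lk of −1.04, and PAU3 (chrIII:308043-308191) had 569 and 407 against 269 and 362, with −1.32. PAU24 (chrII:809075-809203), which shares its sequence with PAU6, had 26 and 24 against 43 and 56, with a ∆Lk of −1.34, and the 103-bp fragment of PAU11 had 26 and 17 against 67 and 115, with −1.27. The copy of the PAU24 sequence in PAU6 was not called (edgeR adjusted p = 0.055), though both leaned to section B.

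Neither of the 2 COS fragments was called, with log2 A/B of 0.16 in COS7 and 0.20 in COS10. Other called genes were YPS5, a protein related to the yapsin proteases, whose 155-bp fragment had 1586 and 1303 reads in section A against 792 and 1005 in section B (log2 A/B 0.51, edgeR adjusted p = 9.88e-14, ∆Lk −1.25), MCH2, a monocarboxylate permease homologue (0.38, −1.24), BDS1, a sulfatase (0.88, −1.16), ERR3, an enolase-related protein (0.67, −1.18) and RDS1, a transcription factor (0.58, −1.27). IRC7, a beta-lyase, was higher in section B, with 397 and 320 against 372 and 500 reads, a log2 A/B of −0.46 and a ∆Lk of −1.05. AAD3, an aryl-alcohol dehydrogenase homologue (0.29), and ARN2, a siderophore transporter (−0.03), were not called. SOR1, a sorbitol dehydrogenase (−0.70, ∆Lk −1.36), and ARR3, an arsenite exporter (0.44, ∆Lk −1.33), were called, but each lost the call by DESeq2 and without single runs, and the SOR2 copy of the same sequence was not called (edgeR adjusted p = 0.35).

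No fragment lay in a FLO, HXT, MAL, IMA, THI5, SNO or SNZ gene by its midpoint, and 3 lay in annotated replication origins, of which chrV:4025-4184 was called in section A (101 and 105 against 58 and 75 reads, ∆Lk −1.26). The only fragment in a retrotransposon remnant, chrIII:3254-3392 in YCL074W, had no read in NucLib, 10 and 7 in section A against 17 and 16 in section B and a ∆Lk of −1.75. Beside the telomeric PAU15, the 170-bp fragment chrIX:433553-433722 had a log2 A/B of −0.45 (edgeR adjusted p = 0.0073) and a ∆Lk of −1.50, and this call was lost without the second run of section B, by DESeq2 and with library sizes that leave out the most abundant fragment.

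Spearman's rho between length and ∆Lk was −0.62 over the 675 fragments. Subtracting the length means and then shifting per bp imposes a fall of the mean ∆Lk with length over all fragments tested. This rho therefore cannot be ranked against those of distance and GC content. The log2 A/B, which is not corrected for length, rose with length, with a rho of 0.38 over the same fragments. Subtelomeric fragments under 110 bp had a median ∆Lk of −0.72, against −0.93 over all fragments tested and −1.11 over those more than 30 kb from an end, and 45.4% of them were called in section B, against 58.8% and 73.9%. At 110 to 129 bp the medians were −0.90, −1.10 and −1.19, and the shares called in section B 29.6%, 55.1% and 67.1%. From 130 bp on the medians lay closer together: they were −1.16, −1.16 and −1.17 at 130 to 144 bp, −1.33, −1.28 and −1.29 at 145 to 159 bp, and −1.41, −1.42 and −1.42 from 160 bp. Fragments under 130 bp were 223 of the 675. Among them were 53 nested pieces of the chromosome VIII tract and many identical copies of Y' inserts, whose reads cannot be told apart. The medians and shares of the short classes therefore rest on fewer separate inserts than fragments. The median length of the 675 was 140 bp, against 147 bp over all fragments tested. Without minor fragments, the medians under 110 bp were −0.59, −0.82 and −1.05.

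**Figure D5:**
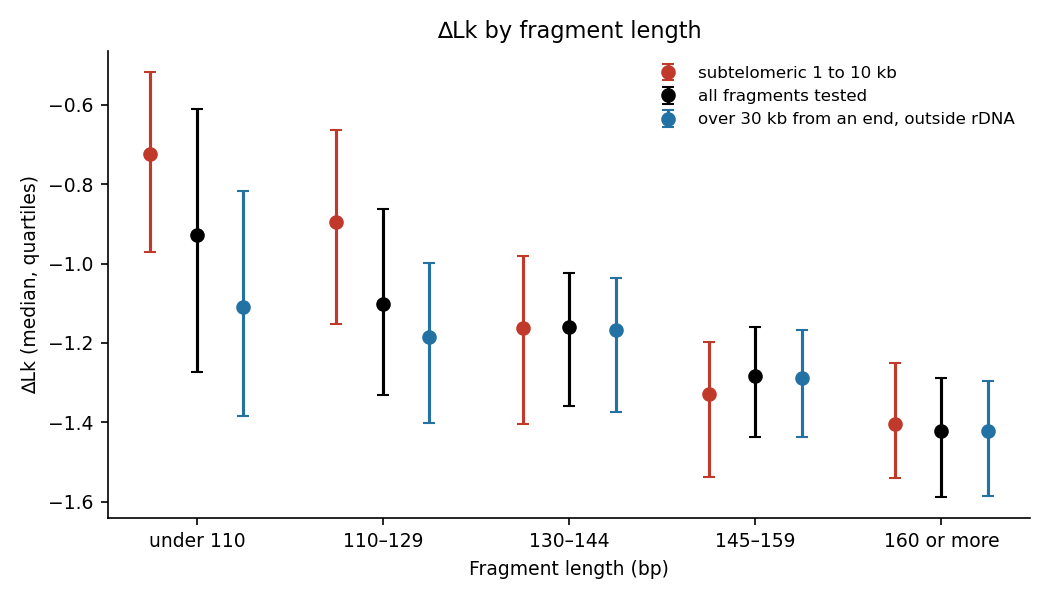
Median ∆Lk (points, in units of linking number) with quartiles (bars) by length class in bp for the subtelomeric fragments, all fragments tested and fragments over 30 kb from an end outside the rDNA. The subtelomeric medians of −0.72 and −0.90 lie above the others in the classes under 130 bp, and the medians come together from 130 bp on. Identical copies and nested fragments are each counted.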

How the data were processed

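Mononucleosome DNA in pooled minichromosomes was sequenced in 6 libraries, 2 runs each of NucLib, Topo-seq-A and Topo-seq-B. The authors amplified the inserts by PCR, trimmed and aligned the read pairs to R64 (Bowtie 1.1.2, with SAMtools, Picard and BWA also named in the submitters' processing notes) and deposited the number of read pairs of each fragment in each run, as raw counts. Whether molecules were de-duplicated, and which place a read with several matches was given, is not given in the sources used here. Totals per list ranged from 851697 to 2073823 reads, and their precision is that of counting only.

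Fragments with 10 or more reads in each section were tested with edgeR 4.0.16 in R 4.3.3 (glmQLFit and glmQLFTest on the 4 section libraries, list totals as library sizes, adjusted p under 0.05). log2 A/B is the ratio of reads over list totals, summed over runs. ∆Lk is the Z-score of the share of section A times 0.85, minus the mean of its length, moved by 0.007 per bp from 144 bp, plus −1.26. Features, genes and distances were taken at the midpoint from the R64 annotation, and sequences identical on either strand were grouped. The fitting was tested on simulated data. DESeq2 1.42.0, other normalizations, read minimums, units of counting, length corrections and single runs were alternatives.

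Same-numbered runs shared a flow cell lane in the methods, and their deviations from the section means correlated across fragments with 50 or more reads (r = 0.12 over 3844 fragments, 0.13 over 235 subtelomeric ones). The fit without the run as a block is the main one.

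The subtelomeric fragments, the gene lists and the tests were chosen with earlier results of these data known. By a fixed rule, the text names the 8 highest and 8 lowest ∆Lk among called fragments with 50 or more reads in each section on the same side in both runs (at most 1 per locus), the 5 sequences at most ends, the 5 loci with most fragments, the most read fragment of each list and those nearest the distance limits. Other named fragments were chosen after their values were seen.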

Additional observations from a re-analysis of the deposited data

How the results depend on the processing

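The median log2 A/B, 0.02 in the report, followed the choice of fragments and of library size. It was 0.23 with library sizes without the most abundant fragment, which moved the median of all fragments from 0.08 to 0.29, and 0.17, 0.22 and −0.46 with minimums of 20, 50 and 1 reads. It was −0.24 with each sequence once, 0.16 with each locus once, 0.18 over the fragments of the study's own list, 0.31 without minor fragments, and 0.062 to 0.077 in single runs. The median ∆Lk of −1.18 became −1.12 with a minimum of 1 read, −1.22 and −1.26 with each sequence or locus once, −1.20 over the study's list, −1.15 with length means from fragments over 30 kb from an end, and −1.19 to −1.17 in single runs. Its difference of 0.064 from all fragments was 0.079 with minimums of 20 and of 50 reads, 0.043 with 1 read, 0.026 with each sequence once, 0.046 without the mean of the same length and 0.040 without the shift per bp, and it reversed to −0.010 with each locus once. DESeq2 called 58 for section A and 78 for section B, where edgeR called 133 each. Minimums of 20, 50 and 1 reads gave 67, 33 and 280 calls in section B, dropping minor fragments gave 53, and each sequence once gave 73 calls in section A. Without the most abundant fragment in the library sizes, 190 were called in section A and 104 in section B (64.6% of calls in A, against an even split), and with TMM normalization 106 and 148. With the run number as a replicate block, 136 and 141 were called. Leaving out 1 library, with the lone run assumed to vary like the other section, gave 97 to 115 and 101 to 119. Of 572 values of the 39 named fragments under alternatives, 34 lost the call, 6 gained it and 0 reversed in direction. The 34 belong to 10 of the 30 called. Except where fewer fragments were tested, the cause was not tested. The lists end at a fixed number of lines, so the scarcest fragments are not included, and 16 of the 675 had under 5 fragments of their own length to set the mean.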
